A study of Mus musculus with 12 samples.

Results

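The 6 genes Xirp1, Rrad, Pim1, Cavin1, Camk2d and Dyrk3 were followed across 12 Affymetrix arrays of mouse hippocampal CA1 tissue. They were chosen from these same arrays because their level was higher after ischemia in wild-type mice and because the ischemia response differed between SUMO-KD and wild-type mice. Their values are therefore given as a description, with standard errors and without a test. All 10 probe sets that list 1 of these symbols alone were taken, out of 22690 probe sets on the array. The 6 genes stand among 12394 genes with a symbol of their own.

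The 4 groups were SUMO-KD ischemia, SUMO-KD sham, wild-type ischemia and wild-type sham, with 3 samples each. Mice of the ischemia groups had 10 minutes of forebrain ischemia and 3 hours of reperfusion, and the other groups are labelled sham. SUMO-KD mice are transgenic animals in which SUMO, the small ubiquitin-like modifier, is knocked down. The promoter and the cells that carry the transgene, the strain and the age of the mice are not given in the sources used here. Each sample pooled CA1 tissue of 2 brains, so the spread between samples is a spread between pools. In bulk tissue, fewer cells of a type and less RNA per cell cannot be told apart. Sumo3, one of the SUMO genes, had 1879 to 1936 in SUMO-KD ischemia arrays, against 3245 to 3518 in wild-type ischemia arrays. In sham it had 1337 to 1689 in SUMO-KD arrays, against 2247 to 2467 in wild-type arrays, so the genotypes did not overlap within sham or within ischemia. The ID of its probe set marks it as shared with other transcripts. Nothing but the word biological in the labels says how the pools were separated, so the p-values below measure the spread between these pools.

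SUMO proteins are attached to lysines of other proteins, many of them transcription factors and chromatin proteins, and the attachment rises strongly in brain tissue after transient ischemia. CA1 pyramidal neurons die in the days after such ischemia, and early hours of reperfusion bring a wave of stress-induced transcription. The 6 genes do not form a pathway. Xirp1 encodes Xin, an actin-binding repeat protein known from heart and skeletal muscle. Rrad encodes an RGK GTPase, which binds calcium channel beta subunits and lowers channel current. Pim1 encodes a serine/threonine kinase that is controlled mainly through its expression and is a known target of STAT factors. Cavin1 encodes a coat protein of caveolae, the small invaginations of the cell membrane. Camk2d encodes the delta subunit of calcium/calmodulin-dependent protein kinase II. Dyrk3 encodes a kinase that is known to dissolve stress granules.

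The RefSeq promoter table (build GRCm38.p6) held 4 of the 6 genes, Pim1, Cavin1, Camk2d and Dyrk3, in 6 windows from 250 bases before to 50 after an annotated start. The windows below, 1 for each gene, are shown because these genes had a smaller or opposite ischemia response in SUMO-KD. Capitals mark the Sp1 box GGGCGG on either strand. The Pim1 window is chr17:29490535-29490834 on the plus strand, the Cavin1 window chr11:100970568-100970867 on the minus strand, the Camk2d window chr3:126596701-126597000 on the plus strand and the Dyrk3 window chr1:131138185-131138484 on the minus strand.
Pim1: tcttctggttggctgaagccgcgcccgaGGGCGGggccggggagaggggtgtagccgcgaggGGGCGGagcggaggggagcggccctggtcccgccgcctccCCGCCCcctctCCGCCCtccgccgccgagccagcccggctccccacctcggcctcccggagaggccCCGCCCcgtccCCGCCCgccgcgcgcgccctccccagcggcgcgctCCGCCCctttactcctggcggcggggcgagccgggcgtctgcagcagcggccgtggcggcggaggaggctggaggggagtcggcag
Cavin1: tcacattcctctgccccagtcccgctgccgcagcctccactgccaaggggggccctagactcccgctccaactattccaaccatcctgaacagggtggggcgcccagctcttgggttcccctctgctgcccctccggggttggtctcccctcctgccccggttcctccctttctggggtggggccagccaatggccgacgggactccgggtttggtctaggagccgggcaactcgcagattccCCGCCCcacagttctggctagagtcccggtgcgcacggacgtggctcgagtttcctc
Camk2d: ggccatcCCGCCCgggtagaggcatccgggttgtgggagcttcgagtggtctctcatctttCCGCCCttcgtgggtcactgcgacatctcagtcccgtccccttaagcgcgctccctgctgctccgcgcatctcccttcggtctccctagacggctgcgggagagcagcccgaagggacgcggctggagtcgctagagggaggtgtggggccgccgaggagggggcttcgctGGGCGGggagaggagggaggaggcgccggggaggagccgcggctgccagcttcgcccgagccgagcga
Dyrk3: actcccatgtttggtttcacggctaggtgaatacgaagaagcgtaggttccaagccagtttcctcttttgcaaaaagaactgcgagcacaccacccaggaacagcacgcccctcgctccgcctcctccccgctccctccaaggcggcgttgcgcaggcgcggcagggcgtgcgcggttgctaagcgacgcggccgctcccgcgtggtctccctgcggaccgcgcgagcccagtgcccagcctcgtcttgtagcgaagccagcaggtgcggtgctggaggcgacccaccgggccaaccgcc

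The Sp1 box occurred 7 times in the Pim1 window, 3 times in the Camk2d window and 1 time in the Cavin1 window, and no match lay in the Dyrk3 window. It occurs in 35.9% of the 32544 distinct windows of the table, 1 chromosome left out. GC content was 81.3% for Pim1, 66.7% for Cavin1, 70.3% for Camk2d and 66.3% for Dyrk3, against a median of 53.0% over all windows. Motifs of inducible factors were searched on both strands. The 2 windows of Cavin1 overlap almost fully. None of the 6 windows of these genes held the CRE core TGACG (in 20.9% of all windows), the full CRE TGACGTCA that contains it (1.8%), the AP-1 site TGANTCA (7.79%) or the serum response CArG box (1.64%). The same held for the heat shock element GAANNTTC (7.89%), the STAT site TTCNNNGAA (8.33%) and the TATA box TATAAA (13.6%). The NF-kB pattern, which overlaps the Sp1 box in places, matched at least 1 window of each of the 4 genes, and 51.0% of all windows. Of the 2 Pim1 windows, 1 held no match to it. The E-box CACGTG matched a second Pim1 window (chr17:29492835-29493134, plus strand) and 7.17% of all windows. A match is a run of letters and not a shown binding site.

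Levels are deposited intensities on a linear scale. Changes are differences of log2(intensity + 32) and understate the change of dim probe sets. The median intensity of an array was 141 to 162.3, and values below 32 made up 22.4% to 28.6% of its probe sets. The 18S 3′ control probe set had 2829 to 4127 in 5 ischemia arrays and 6316 in SUMO-KD ischemia replicate 2, against 5087 to 7569 in sham arrays. The 18S 5′ control probe set had 1275 to 1660 in the same 5 ischemia arrays and 4127 in SUMO-KD ischemia replicate 2, against 4194 to 6528 in sham arrays. The part of this shift in the results was not tested.

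All 3 wild-type ischemia arrays lay above all 3 wild-type sham arrays for 6 of the 6 genes, where 15.6% of all genes had that order. In SUMO-KD this held for 3 of the 6, namely Rrad, Pim1 and Dyrk3, against 13.9% of all genes. Camk2d had the opposite order in SUMO-KD, which 15.9% of all genes had, and Xirp1 and Cavin1 overlapped between the surgeries. After ischemia every SUMO-KD array was under every wild-type array for 5 of the 6, all but Camk2d, against 8.91% of all genes. The choice of the genes fixed most of these orders. Both counts of higher ischemia arrays stayed at 6 and 3 when SUMO-KD ischemia replicate 2 was left out, and likewise for wild-type ischemia replicate 3, alternatives chosen after seeing the data. Leaving out an ischemia array cannot lower such a count, so these omissions do not show how firm the counts are.

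**Figure D1:**
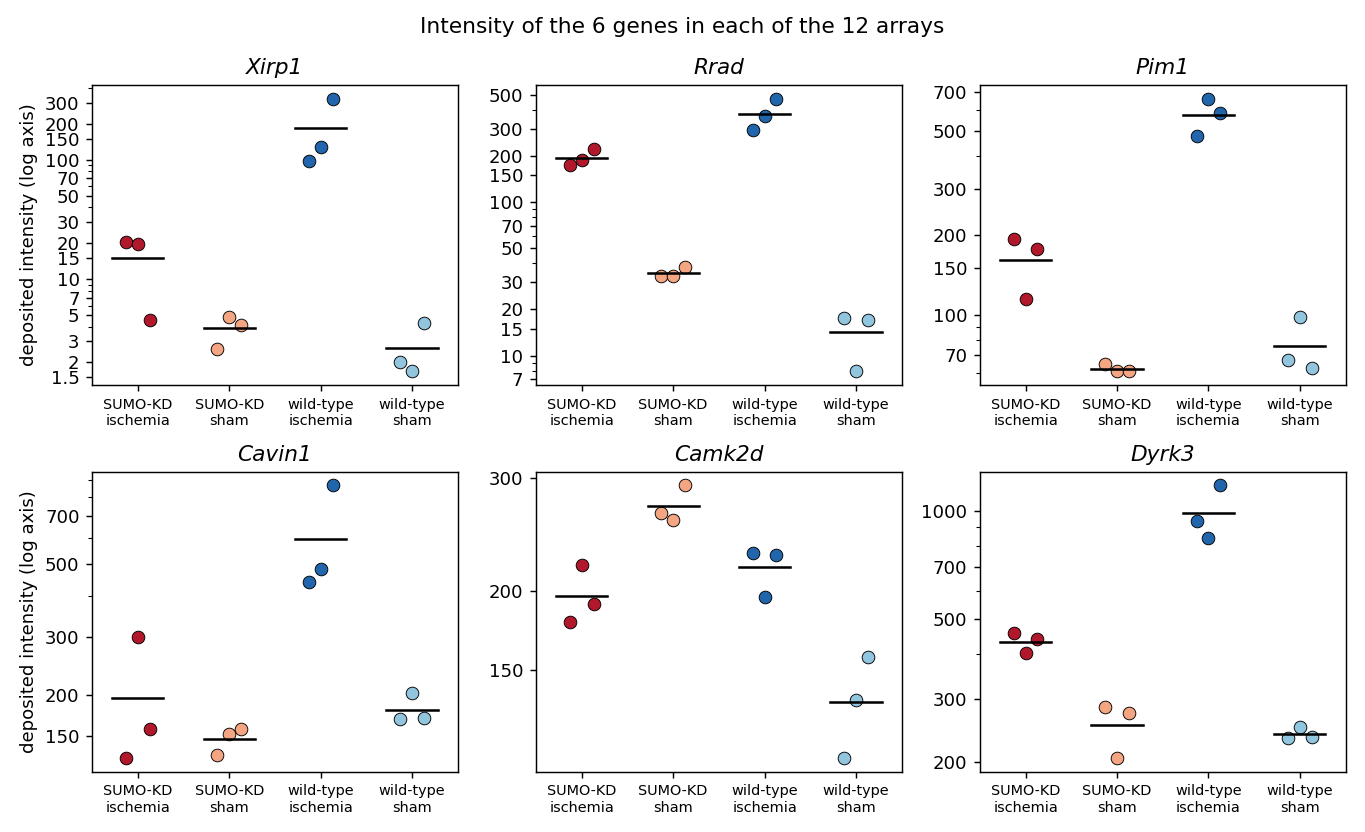
Deposited intensity (log axis, a different range in each panel) of the 6 genes in every array, by group; each point is 1 array and the bar is the mean of 3. Wild-type ischemia arrays lie above wild-type sham arrays for every gene, and for Camk2d the SUMO-KD ischemia arrays lie below the SUMO-KD sham arrays.

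Xirp1 had the largest response difference of the 6. Its intensity was 20.6, 19.8 and 4.57 in SUMO-KD ischemia arrays and 2.60, 4.85 and 4.16 in SUMO-KD sham arrays. It was 98.6, 127 and 327 in wild-type ischemia arrays and 2.02, 1.68 and 4.30 in wild-type sham arrays. Only wild-type ischemia arrays were above 32, and wild-type ischemia replicate 3 was the highest of them. The log2 change with ischemia was 0.37 in SUMO-KD and 2.50 in wild-type (SE 0.29 each). The response in SUMO-KD minus that in wild-type was −2.13 (SE 0.41) and was −1.69 without wild-type ischemia replicate 3. SUMO-KD ischemia and both sham groups lay in the range where the array resolves little, so their order is not read here.

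The intensity of Rrad was 175, 187 and 223 in SUMO-KD ischemia arrays and 32.8, 32.9 and 37.7 in SUMO-KD sham arrays. It was 294, 361 and 471 in wild-type ischemia arrays and 17.7, 7.90 and 17.0 in wild-type sham arrays. Both ischemia groups stood apart from each other and from the sham groups. The sham values lay near or below 32, so their order is not read here. The change with ischemia was 1.77 in SUMO-KD and 3.13 in wild-type (SE 0.15 each), a difference of −1.36 (SE 0.21). SUMO-KD minus wild-type was −0.83 after ischemia and 0.53 in sham (SE 0.15 each). The size of the response difference depends on the offset, since it was −2.22 with an offset of 1 and −1.08 with an offset of 64.

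Pim1 had 193, 115 and 177 in SUMO-KD ischemia arrays and 65.2, 60.9 and 61.0 in SUMO-KD sham arrays. It had 475, 661 and 584 in wild-type ischemia arrays and 67.3, 98.0 and 62.7 in wild-type sham arrays. Both ischemia groups stood apart from each other and from the sham groups, and the sham groups overlapped. The change with ischemia was 1.01 in SUMO-KD and 2.49 in wild-type (SE 0.17 each), with a difference of −1.47 (SE 0.25). Without SUMO-KD ischemia replicate 2, the array at 115, the SUMO-KD change was 1.20 and the difference −1.29. A dimmer probe set of Pim1 had 91.4, 67.0 and 65.9 in SUMO-KD ischemia arrays and 29.4, 41.9 and 51.7 in SUMO-KD sham arrays. On that probe set wild-type ischemia arrays had 228, 245 and 172 and wild-type sham arrays 32.3, 53.4 and 39.3. Its groups lay in the same order, with a difference of −1.19 (SE 0.23).

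Dyrk3 had 457, 403 and 441 in SUMO-KD ischemia arrays and 284, 206 and 274 in SUMO-KD sham arrays. It had 938, 840 and 1179 in wild-type ischemia arrays and 234, 251 and 235 in wild-type sham arrays. The order was that of Pim1, with overlapping sham groups and separate ischemia groups. The change with ischemia was 0.71 in SUMO-KD and 1.89 in wild-type (SE 0.14 each), with a difference of −1.18 (SE 0.19).

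Cavin1 had 128, 299 and 158 in SUMO-KD ischemia arrays and 131, 152 and 158 in SUMO-KD sham arrays. It had 441, 482 and 866 in wild-type ischemia arrays and 168, 203 and 170 in wild-type sham arrays. Wild-type ischemia stood above every other group, and SUMO-KD ischemia overlapped both sham groups. SUMO-KD sham arrays were all under the wild-type sham arrays, an order that 9.68% of all genes had. The change with ischemia was 0.28 in SUMO-KD and 1.51 in wild-type (SE 0.27 each), with a difference of −1.23 (SE 0.38). Without SUMO-KD ischemia replicate 2, the array at 299, the SUMO-KD change was −0.033 and the difference −1.54. Without wild-type ischemia replicate 3, the array at 866, the difference was −0.94. The other Cavin1 probe sets lay between 0.828 and 24.6 in every array, at percentiles 13.1 and 10.2 of mean intensity, and had differences of −0.062 (SE 0.20) and −0.070 (SE 0.25). The pattern of Cavin1 thus rests on 1 probe set, whose ID marks it as shared between transcripts.

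Camk2d went against the description of a muted rise. Its intensity was 178, 219 and 191 in SUMO-KD ischemia arrays and 265, 258 and 293 in SUMO-KD sham arrays. It was 229, 196 and 227 in wild-type ischemia arrays and 109, 135 and 157 in wild-type sham arrays. SUMO-KD sham was highest and wild-type sham lowest, and both ischemia groups overlapped in between. The change with ischemia was −0.41 in SUMO-KD and 0.60 in wild-type (SE 0.12 each), with a difference of −1.01 (SE 0.17). Without SUMO-KD ischemia replicate 2 the SUMO-KD change was −0.49 and the difference −1.08. The genotypes differed by 0.88 in sham and by −0.13 after ischemia (SUMO-KD minus wild-type, SE 0.12 each), so nearly all of the response difference lay in the sham groups. All SUMO-KD sham arrays lay above all wild-type sham arrays for Camk2d and Rrad, 2 of the 6 genes, against 11% of all genes, and those of Rrad were too dim for their order to be read. A dimmer probe set of Camk2d, between 30.1 and 77.2, had a difference of −0.11 (SE 0.21) and did not show the pattern.

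Relative to the wild-type change, the SUMO-KD change was 56.5% for Rrad, 40.8% for Pim1, 37.5% for Dyrk3, 18.3% for Cavin1 and 14.9% for Xirp1, and −69.3% for Camk2d. With offsets of 1, 16 and 64 in place of 32 the share was 52.5% to 56.1% for Rrad and 11.9% to 27.3% for Xirp1.

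**Figure D2:**
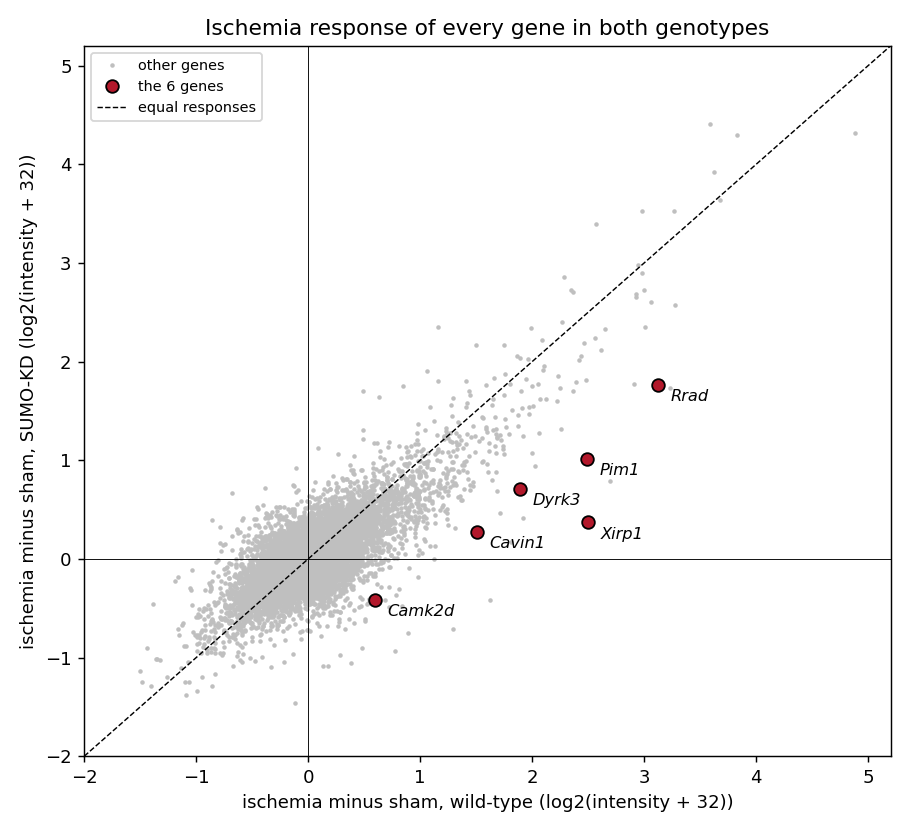
Ischemia response of all 12394 genes as differences of log2(intensity + 32), wild-type on the horizontal axis and SUMO-KD on the vertical axis; the dashed line marks equal responses. The 6 genes lie below the line, Rrad at 1.77 in SUMO-KD and 3.13 in wild-type and Camk2d at −0.41 in SUMO-KD and 0.60 in wild-type.

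By response difference Pim1 ranked 10, Rrad 13, Cavin1 19, Dyrk3 22 and Camk2d 34 from the most negative of 12394 genes, at an offset of 32. The 6 genes were chosen for this difference, so ranks near the negative end follow from the choice. The rank of Rrad also rests on dim sham values, and those of Cavin1 and Camk2d rest on 1 probe set each. Rrad, Dyrk3 and Xirp1 were measured by 1 probe set each, so no other probe set could be compared for them. No rank is given for Xirp1: its difference ran from −4.02 to −1.58 over the offsets, and 3 of its groups were below 32. Of the 286 genes with a wild-type rise of at least 1 on the log2 scale, 236 had a smaller change in SUMO-KD, and the median difference was −0.38. Those genes were picked on the wild-type value, which favours a smaller SUMO-KD value. Camk2d was not among them. Among the 286, the 5 most negative outside the 6 genes were Sox11 (−2.04), Tac2 (−2.001, SE 1.14), Acan (−1.91), Inhba (−1.64) and Gbp3 (−1.50). In limma's moderated test with Benjamini-Hochberg adjustment the response difference passed for 2 genes, or 0.0161% of all, and 766 genes (6.18%) had an unadjusted p under 0.05. Both were transcription factor genes outside the 6, named here after their values were seen: Sox11 and Neurod1 (each adjusted p = 0.022). The count was 0 when any 1 of 9 arrays was left out, 3 without wild-type ischemia replicate 1 or SUMO-KD sham replicate 2, and 5 without wild-type ischemia replicate 2.

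The likeness of other genes to the 6 was measured as the mean absolute difference over the 12 arrays of log2 values, each gene centred on its wild-type sham mean. The nearest genes to Xirp1 were Rgs2 (0.25), Acan (0.27) and Smad7 (0.38), and to Dyrk3 they were Rgs2 (0.19), Errfi1 (0.19) and Nifk (0.20). Those to Pim1 were Ier5 (0.28), Acan (0.32) and Klf10 (0.33), and those to Rrad were Lmna (0.27), Ccdc86 (0.29) and Gadd45g (0.29). Rgs2, a regulator of G protein signalling, changed by 0.46 in SUMO-KD and 1.71 in wild-type, so 2 of the 6 genes shared their nearest neighbour. The nearest genes to Rrad and Pim1 kept more of their rise in SUMO-KD. Lmna changed by 2.12 in SUMO-KD and 2.61 in wild-type, and Ier5 by 1.62 and 2.12. The nearest to Cavin1 were Dmkn (0.19), Prg4 (0.22) and Sucnr1 (0.24), and to Camk2d Parp12 (0.14), Krt2 (0.17) and Efemp1 (0.17). Dmkn changed by 0.32 in SUMO-KD and 1.31 in wild-type, and Parp12 by −0.29 and 0.38. Among the 6 themselves, Pim1 and Dyrk3 (0.30) and Xirp1 and Dyrk3 (0.31) were closest, and Rrad and Camk2d (1.23) were farthest apart.

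Relatives and partners of the 6 genes were taken from 8 lists by function, 87 measured genes of 98 listed, the 6 themselves left out. The lists were chosen with earlier results of these data known, so a share called above that of all genes is a description and not independent support. In limma's test with Benjamini-Hochberg adjustment over all genes, 18 rose and 4 fell with ischemia in SUMO-KD, which is 25.3% of them, against 10.7% of all genes (6.09% higher, 4.62% lower). In wild-type 19 rose and 6 fell, which is 28.7%, against 18.5% of all genes (9.6% higher, 8.88% lower). The rises were uneven over the lists. Pim kinases and JAK-STAT feedback held 8 in SUMO-KD and 9 in wild-type, and Xin partners and SRF-MRTF targets 7 and 6. RGK GTPases held 2 and 1. The calcium channel, caveolae, CaM kinase and DYRK and HIPK lists held 0 in SUMO-KD. In wild-type, caveolae and DYRK and HIPK held 1 each and the other 2 lists 0. The median log2 change was 0.09 in SUMO-KD (all genes −0.02) and 0.15 in wild-type (all genes −0.04). For the response difference 0 of the 87 passed in limma's test, and 6 had an unadjusted p under 0.05. After ischemia 1 relative was higher in SUMO-KD than in wild-type, Lifr, and 3 were lower, Stat5a, Cebpb and Srf, where 1.56% of all genes were called (1% higher, 0.557% lower). In sham 1 was higher, Camk2g, and 5 were lower, Rem2, Cebpb, Camk1d, Camkk2 and Srf, where 2.1% of all genes were called (1.5% higher, 0.597% lower). Each of these calls was lost on leaving out at least 1 of the 12 arrays, and that of Cebpb after ischemia was lost without SUMO-KD ischemia replicate 3 (adjusted p = 0.0527). Lifr, Stat5a and Camk1d are named after their values were seen.

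**Figure D3:**
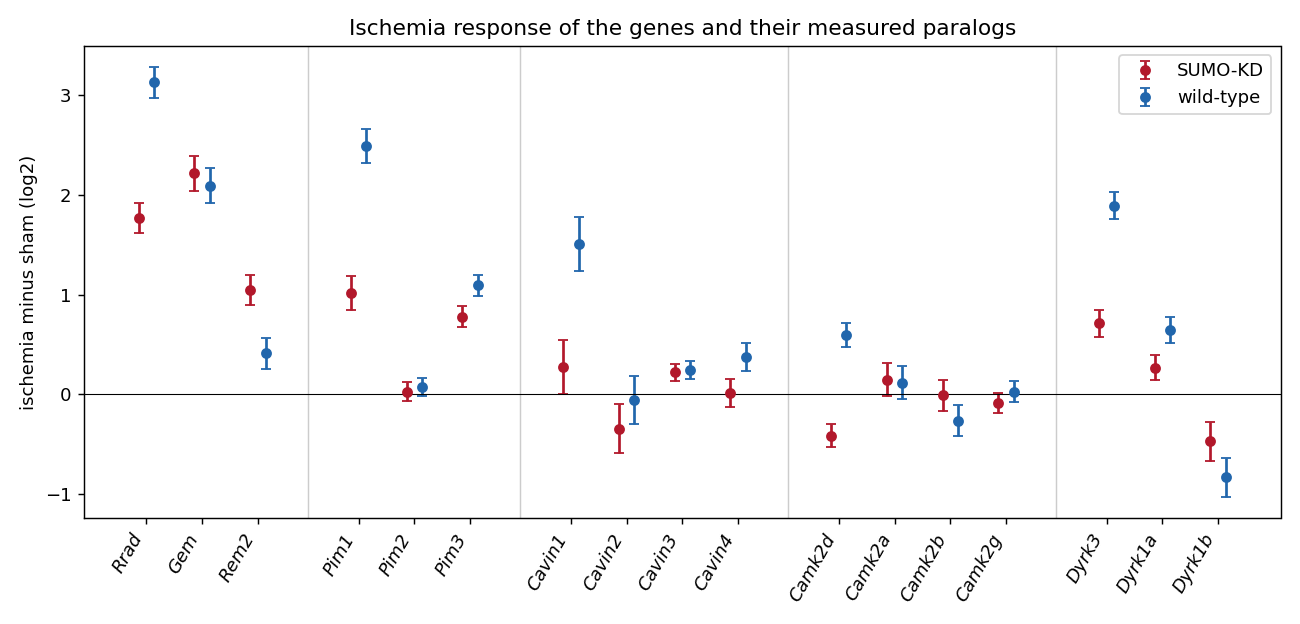
Ischemia response (ischemia minus sham, log2(intensity + 32)) in SUMO-KD and wild-type of 5 of the 6 genes and their measured paralogs; bars are standard errors. Gem lies at 2.22 in SUMO-KD and 2.09 in wild-type, and its relative Rrad at 1.77 and 3.13.

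The RGK GTPase Gem, a relative of Rrad that also binds calcium channel beta subunits, had a mean of 305 in SUMO-KD ischemia and 40.6 in SUMO-KD sham arrays. Its means were 272 in wild-type ischemia and 39.0 in wild-type sham arrays. Gem rose by 2.22 in SUMO-KD and by 2.09 in wild-type (adjusted p = 1.66e-05 and 1.7e-05), a difference of 0.12 (adjusted p = 0.971). Rem2, the other measured RGK gene, rose by 1.05 in SUMO-KD (adjusted p = 0.00127) and had 0.41 in wild-type (adjusted p = 0.0879), a difference of 0.64 (adjusted p = 0.716). It passed in wild-type too without SUMO-KD sham replicate 3. Of 11 calcium channel subunit genes, 0 passed in either genotype in limma's test, and 0 had an unadjusted p under 0.05. Without wild-type ischemia replicate 2, 1 of them fell in wild-type.

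Of the 2 other Pim kinases, Pim3 rose by 0.78 in SUMO-KD and by 1.09 in wild-type (adjusted p = 0.000663 and 4.5e-05), a difference of −0.31 (adjusted p = 0.81). Pim2 had 0.027 and 0.071 (adjusted p = 0.909 and 0.662). In the list of Pim kinases and JAK-STAT feedback genes, 8 of 18 rose in SUMO-KD and 9 rose in wild-type, and 0 fell in either. Socs3, a feedback inhibitor of STAT3 signalling, rose by 2.86 and 2.28. Osmr, the oncostatin M receptor gene, rose by 1.81 and 2.48, Myc by 1.51 and 1.82 and Cebpd, a transcription factor gene, by 0.96 and 1.59. These 4 genes passed in both genotypes, and their response differences did not pass (adjusted p of 0.901 for Socs3, 0.865 for Osmr, 0.796 for Myc and 0.431 for Cebpd). The 0 falls in wild-type became 1 without SUMO-KD sham replicate 2.

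Of 10 measured genes of caveolae, 0 rose and 1 fell in SUMO-KD, and 1 rose and 0 fell in wild-type. The rise was of Ehd4 (0.83, adjusted p = 0.00993) and the fall of Ehd1 (−0.49, adjusted p = 0.0443), both of which encode membrane-bending ATPases. The call of Ehd1 was lost in 10 of the 12 omissions of an array, all but those of wild-type ischemia replicate 3 and SUMO-KD sham replicate 2. Ehd4 had 0.60 in SUMO-KD (adjusted p = 0.0634), and 1 caveolar gene rose there when wild-type ischemia replicate 1 or 3, replicate 3 of SUMO-KD sham or replicate 1 of SUMO-KD ischemia was left out. Among the partner genes of Cavin1, Cav1, the main caveolar membrane protein gene, had −0.15 in SUMO-KD and 0.56 in wild-type (adjusted p = 0.789 and 0.149). Cavin2 had −0.34 and −0.057, Cavin3 0.22 and 0.24 and Cavin4 0.016 and 0.37, and none of these 3 passed in either genotype. In wild-type, 2 caveolar genes rose without SUMO-KD ischemia replicate 1.

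Of 9 CaM kinase genes, 0 passed in SUMO-KD in limma's test (1 had an unadjusted p under 0.05), and 0 rose and 2 fell in wild-type. The falls were of Camkk2, an upstream kinase (−0.87, adjusted p = 0.0045, and 0.271 without shared probe sets), and of the pseudokinase gene Camkv (−0.38, adjusted p = 0.0382). The 2 falls became 1 without any one of the wild-type sham arrays, wild-type ischemia replicates 2 or 3 or SUMO-KD sham replicate 2. The other CaMKII subunit genes did not pass for ischemia: Camk2b had −0.011 in SUMO-KD and −0.27 in wild-type and Camk2g had −0.089 and 0.025. Camk2a, known as abundant in forebrain neurons, had group means of 34.1 to 68.3 on its probe set, below the median intensity of every array. In sham, SUMO-KD minus wild-type was 0.47 for Camk2g (adjusted p = 0.0442) and −0.46 for Camk2b (adjusted p = 0.197), beside the 0.88 of Camk2d. The Camk2g call was lost without wild-type sham replicate 1 (adjusted p = 0.153) and in 15 other alternatives.

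Of 5 DYRK and HIPK kinases other than Dyrk3, 0 passed in SUMO-KD in limma's test (1 had an unadjusted p under 0.05), and 1 rose and 1 fell in wild-type. Dyrk1a had 0.27 in SUMO-KD (adjusted p = 0.232) and 0.64 in wild-type (adjusted p = 0.00515, and 0.0803 with the mean of all probe sets), and Dyrk1b had −0.47 (adjusted p = 0.162) and −0.83 (adjusted p = 0.0126). Their response differences did not pass (adjusted p = 0.815 and 0.901). Of 11 stress granule genes, 1 rose and 3 fell in each genotype. Tia1, an RNA-binding protein gene that nucleates such granules, fell by 0.80 in SUMO-KD and by 0.96 in wild-type (adjusted p = 0.000718 and 0.000148). Caprin1 had −0.28 and −0.38 and Ubap2l −0.29 and −0.33, while Tial1 (0.60) rose in SUMO-KD and Ddx3x (0.37) in wild-type. In SUMO-KD the 3 falls became 1 without any one sham array of either genotype or any one SUMO-KD ischemia array, and 2 without a wild-type ischemia array. In wild-type the falls numbered 2 to 4 with an array left out, and 4 without SUMO-KD ischemia replicate 1. The wild-type call of Ubap2l was lost without wild-type sham replicate 2 (adjusted p = 0.0584) or wild-type ischemia replicates 2 (0.0582) or 3 (0.0641). With the mean of all probe sets, neither Caprin1 (adjusted p = 0.0764) nor Ubap2l (0.131) passed in wild-type. In SUMO-KD that setting lost the calls of Ubap2l (adjusted p = 0.801) and Tial1 (0.462). The SUMO-KD rise was lost without SUMO-KD sham replicates 2 or 3 or any SUMO-KD ischemia array, and the wild-type rise without wild-type sham replicate 1 or wild-type ischemia replicate 1.

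Of 21 Xin partners and targets of serum response factor with its MRTF coactivators, 7 rose in SUMO-KD and 6 in wild-type, and 0 fell. With 1 array left out, the rises numbered 6 to 8 in each genotype. Tagln2 was called in SUMO-KD (0.50, adjusted p = 0.0439) and not in wild-type (0.33, adjusted p = 0.138), and its SUMO-KD call was lost in 13 alternatives. Ccn2, a matricellular protein gene, rose by 1.84 in SUMO-KD and by 1.66 in wild-type. The intermediate filament gene Vim rose by 1.22 and 1.21, Zyx, an actin-linked adhesion protein gene, by 1.10 and 1.005, and Srf itself by 1.06 and 0.95. Xirp1 was at 0.37 and 2.50. The response differences of Ccn2, Vim, Zyx and Srf were 0.18, 0.0047, 0.092 and 0.10 and did not pass (adjusted p = 0.963, 0.999, 0.954 and 0.946). Srf was lower in SUMO-KD in sham (−0.54, adjusted p = 0.00999) and after ischemia (−0.43, adjusted p = 0.0373). The sham call was lost without wild-type sham replicate 1 (adjusted p = 0.0589) or SUMO-KD sham replicate 3 (0.0575), with the compared groups alone (0.0602) and without shared probe sets (0.115). The ischemia call was lost in 16 alternatives, with an adjusted p of 0.866 without shared probe sets. The ID of the Srf probe set marks it as shared between transcripts.

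Markers of other cells were summed per array beside these results, and single markers are named after their values were seen. Xirp1 and Rrad are best known from striated muscle. Of 11 skeletal muscle markers, 8 had a mean below 32, among them Myh1, Myh2, Myh4, Mylpf, Tnnt3 and Actn3, and the summed level was 471 to 547 in SUMO-KD ischemia, 345 to 484 in SUMO-KD sham, 444 to 570 in wild-type ischemia and 344 to 499 in wild-type sham arrays. Des, the gene of the intermediate filament protein desmin, was called higher with ischemia in SUMO-KD (1.08, adjusted p = 0.0107; means 95.5 in ischemia and 26.7 in sham). It was also called higher in wild-type (0.89, adjusted p = 0.0189; means 150.4 in ischemia and 66.7 in sham). Tnni2, a troponin gene with all group means below 32, was called lower with ischemia in wild-type (−0.48, adjusted p = 0.00961), and the other 9 markers were called in neither genotype. The part of these levels in the values of Xirp1 and Rrad was not tested. Cavin1 is abundant in vessels, and the part of the marker levels in its values was not tested. The 10 measured endothelial markers of 11 summed to 1816 to 1858 in SUMO-KD ischemia, 2256 to 2817 in SUMO-KD sham, 1746 to 2253 in wild-type ischemia and 2491 to 3055 in wild-type sham arrays, with no overlap of ischemia and sham in either genotype. The markers did not move one way: in each genotype 3 of the 10 were called lower with ischemia, Slco1a4, Abcb1a and Tek, and 1 was called higher. That was the endothelial cadherin gene Cdh5 (0.84 in SUMO-KD, adjusted p = 0.00039, and 0.91 in wild-type, adjusted p = 0.000168). Wild-type ischemia replicate 3, highest of its group for 4 of the 6 genes, had the 2253. The 9 smooth muscle and pericyte markers summed to 2526 to 2641 in SUMO-KD ischemia, 2570 to 2981 in SUMO-KD sham, 2698 to 2956 in wild-type ischemia and 3069 to 3283 in wild-type sham arrays. The 7 measured microglial markers of 8 summed to 4094 to 4505 in SUMO-KD ischemia, 5410 to 5706 in SUMO-KD sham, 4128 to 4449 in wild-type ischemia and 5257 to 5781 in wild-type sham arrays. Ischemia and sham did not overlap in either genotype, 4 of the 7 markers were called lower in each, and the part of this in the ischemia changes was not tested. Over all genes, 6.09% were called higher and 4.62% lower with ischemia in SUMO-KD, and 9.6% and 8.88% in wild-type.

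The summed CA1 pyramidal markers were lower in SUMO-KD sham than in wild-type sham arrays, whereas Camk2d was higher there. The 3 measured CA1 pyramidal markers of 6, Wfs1, Pou3f1 and Man1a, summed to 3063 to 3536 in SUMO-KD ischemia and 2806 to 3850 in SUMO-KD sham arrays. They summed to 3102 to 4066 in wild-type ischemia and 5048 to 7227 in wild-type sham arrays. In sham, SUMO-KD minus wild-type was −0.87 for Wfs1 (adjusted p = 0.0145) and −0.85 for Man1a (adjusted p = 0.0333), and −0.88 for Pou3f1 (adjusted p = 0.118). With ischemia, Wfs1 and Pou3f1 were called lower in wild-type, and 0 of the 3 were called in SUMO-KD. The 4 measured dentate granule markers of 5 summed to 1804 to 2220 in SUMO-KD ischemia, 3108 to 4326 in SUMO-KD sham, 1870 to 2023 in wild-type ischemia and 2289 to 3807 in wild-type sham arrays. Of these 4, Lct was called lower with ischemia in both genotypes, and Prox1 was called higher in wild-type (1.03, adjusted p = 0.00473) beside 0.20 in SUMO-KD (adjusted p = 0.621). None of the 4 was called between the sham groups, where 1 had an unadjusted p under 0.05 in limma's test. Of 8 astrocyte markers, 2 were called higher in SUMO-KD sham than in wild-type sham and 0 lower: Gfap by 0.59 (adjusted p = 0.0451) and Aqp4 by 0.52 (adjusted p = 0.0253). Between the sham groups 1.5% of all genes were called higher in SUMO-KD and 0.597% lower. How the marker calls hold under the alternatives is not given here. The part of these marker shifts in the sham difference of Camk2d and Rrad was not tested.

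**Figure D4:**
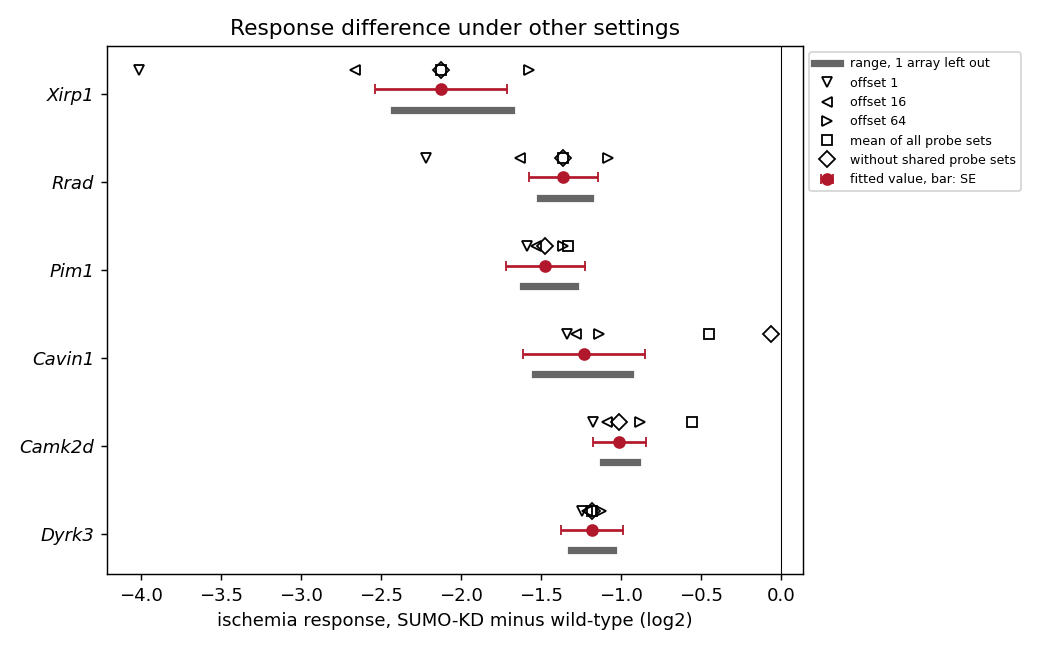
Ischemia response in SUMO-KD minus that in wild-type for the 6 genes on the log2 scale; circles with bars are the fitted value and its SE, grey bars the range when 1 array is left out, open symbols other settings. Offsets move Xirp1 between −4.02 and −1.58, and Cavin1 comes to −0.062 without shared probe sets.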

How the data were processed

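Each array carried RNA of 1 pool of CA1 tissue. The authors deposited linear intensities, 1 for every probe set in every sample. Partek 6.6 and RMA appear in the submitters' processing notes with no stated role, and the deposited intensity values are not in the log2 form that RMA gives. After trimming 2% of values at either end, each of the 12 arrays averaged 500.2. How the table was produced is not known from the sources used here, and no detection calls were used.

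Tests used log2(intensity + 32), 1 probe set per gene (the highest mean over the 12 arrays) and limma 3.58.1 (R 4.3.3), with lmFit on 4 group means and eBayes. Adjusted p-values are two-sided Benjamini-Hochberg values over 12394 genes, called under 0.05, and the fit was tested on simulated data. Probe sets listing several genes (691) or none (1606) named no gene. The 6 genes, the 8 lists of relatives and the 10 marker lists were chosen with earlier results of these data known. Named were the 6 genes, their measured paralogs, up to 4 called genes per list with the largest ischemia change, the 3 nearest genes per member and, among the 286 genes with a wild-type rise of at least 1, the 5 most negative others by response difference. Gene symbols are those of the platform annotation, and promoters are from RefSeq (GRCm38.p6). No batch was known, and 3 arrays a group limit the precision. Alternatives were other offsets, probe set choices, normalizations, a filter on dim genes (mean log2 intensity of at least 6), other fits, a replicate block and omission of each array. Motifs in proteins were planned and not run.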

Additional observations from a re-analysis of the deposited data

Results flagged for a closer look

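The ischemia response of Camk2d differed between the genotypes by −1.01 on the log2 scale (SUMO-KD minus wild-type). It was singled out because all SUMO-KD ischemia arrays lay below all SUMO-KD sham arrays while all wild-type ischemia arrays lay above all wild-type sham arrays. SUMO-KD minus wild-type was 0.88 in sham and −0.13 after ischemia, where the genotypes overlapped. A dimmer Camk2d probe set changed by 0.19 in SUMO-KD and 0.29 in wild-type, a difference of −0.11 (SE 0.21). The response difference was not tested, since Camk2d was chosen for it.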

How the results depend on the processing

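The response differences of the 6 genes (SUMO-KD minus wild-type) stayed negative under every alternative run. The genes were chosen for this difference on these same arrays, so the kept sign is not independent support. For Cavin1 the sign is not read without shared probe sets, where the value was −0.062 (SE 0.20). With offsets of 1, 16 and 64 the value was −4.02, −2.66 and −1.58 for Xirp1 and −2.22, −1.63 and −1.08 for Rrad, and with an offset of 1 it was −1.18 for Camk2d. With the mean of all probe sets it was −0.56 for Camk2d and −0.45 for Cavin1. Without shared probe sets it was −0.062 for Cavin1, whose SUMO-KD change was then −0.043, because a dim probe set took the place of the bright one. With 1 array left out the differences ranged from −2.42 to −1.69 for Xirp1, −1.51 to −1.20 for Rrad, −1.62 to −1.29 for Pim1, −1.54 to −0.94 for Cavin1, −1.11 to −0.90 for Camk2d and −1.31 to −1.05 for Dyrk3. The SUMO-KD change of Cavin1 ranged from −0.033 (without SUMO-KD ischemia replicate 2) to 0.49, and the sham difference of Dyrk3 from −0.012 (without SUMO-KD sham replicate 1) to 0.20. Xirp1 did not pass the filter on dim genes, so no value exists there, and the response difference uses all groups, so no fit on fewer groups was run for it.

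The count of genes called for the response difference was 2, and 1 without shared probe sets, 0 with an offset of 1 and 0 to 5 with an array left out. SUMO-KD against wild-type after ischemia gave 193 genes, 100 with an offset of 1, 48 with the compared groups alone and 60 to 209 with an array left out. In sham it gave 260 genes, 159 with an offset of 1, 127 with the compared groups alone and 110 to 270 with an array left out. Ischemia in SUMO-KD gave 1328 genes, and 764 to 1409 with an array left out (764 without SUMO-KD ischemia replicate 2, 788 without its replicate 3, 846 without SUMO-KD sham replicate 1 and 882 without its replicate 2), and in wild-type 2291 (1548 to 2308), and the relatives called numbered 22 (17 to 22) and 25 (22 to 29). The labels tie same-numbered samples by number alone, and whether they shared a batch is not known. Of 18 correlations of their deviations, 5 were over 0.1, and all lay from −0.166 to 0.277. The highest was between replicates 1 of SUMO-KD sham and wild-type ischemia. Differently numbered samples were not compared in this way, so these values do not settle whether a batch was shared. With the replicate block the count for the response difference was 1, for SUMO-KD ischemia 1297 and for wild-type ischemia 2297. The causes of these shifts were not tested, and no detection call sets a limit for the dim values of Xirp1.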
